A study of Caenorhabditis elegans with 4 samples.

Results

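The core apoptosis pathway of *C. elegans* was followed through 7 genes of the deposited table, namely *egl-1*, *ced-13*, *ced-9*, *ced-4*, *ced-3*, *cep-1* and *Y47G7B.2*, taken by name from the 15408 genes listed. All 7 had a valid estimate in every library and passed the limit of a mean of 0.5 FPKM (fragments scaled to the length of a gene's exons and to the mapped fragments of its library), and so were among the 15065 genes tested. Total RNA, selected for poly-A, came from N2, the wild-type strain, grown on OP50 bacteria as populations of mixed stages. In 2 libraries cisplatin had been present at 60 µg/ml during 24 h (20°C), and in the other 2, the controls, they had received no treatment. No mutant or transgene was involved, and each group holds 2 biological replicates, numbered 1 and 2. Such populations contain animals of every age, so a higher or lower level can reflect more or less RNA per cell or a different share of the cells that make it, and in bulk RNA these cannot be told apart.

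In nematodes, a cell is set to die when a BH3-only protein binds CED-9, the Bcl-2-like protein that holds the adaptor CED-4 in check at mitochondria. Freed CED-4 assembles into the apoptosome and activates the caspase CED-3. EGL-1 is the BH3-only protein of developmental cell death, and CED-13 is a second BH3-only protein. After DNA damage, as in the germline after irradiation, CEP-1, the nematode relative of p53, drives the transcription of *egl-1* and *ced-13*, and *Y47G7B.2* is a nematode-specific gene with the same *cep-1* dependence. Cisplatin crosslinks DNA, so the comparison of treated and untreated animals asks which steps of this pathway changed at the transcript level.

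The transcripts that were more abundant with cisplatin were those of the BH3-only genes and of *Y47G7B.2*. In mean FPKM *egl-1* was about 12 times as high, with its value in cisplatin replicate 1 above the authors' upper confidence bound. *Y47G7B.2* was nearly 5 times as high, and *ced-13* had reads only in the treated libraries. The genes acting downstream of or beside the BH3-only genes, *ced-9*, *ced-4* and *ced-3*, and *cep-1* itself differed by less than 1.2 times between the group means. None of the 7 passed an adjusted p of 0.05 in limma, a test across all genes with Benjamini-Hochberg adjustment, and neither did any other gene of the table (percentage called 0.0). With the replicate number as a block, which leaves 1 residual degree of freedom, *egl-1* (adjusted p = 1.26e-07), *ced-13* (0.00387) and *Y47G7B.2* (0.0241) passed in limma, where 1.53% of all genes passed as higher and 0.916% as lower. The labels do not say that libraries of the same number belong together. With 1 residual degree of freedom, most of the spread behind these p-values is borrowed from other genes. The fit without the block has 2 residual degrees of freedom, and its standard errors and p-values also borrow much of their spread. By an unadjusted p not above 0.05 in limma, 3 of the 7 genes were higher with cisplatin and 0 lower, where 1.12% of all genes were higher and 0.445% lower. Of these 3, *ced-13* reached the limit on the mean FPKM only through its treated libraries. These genes were chosen with earlier results of the data known, so the shares are a description.

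**Figure D1:**
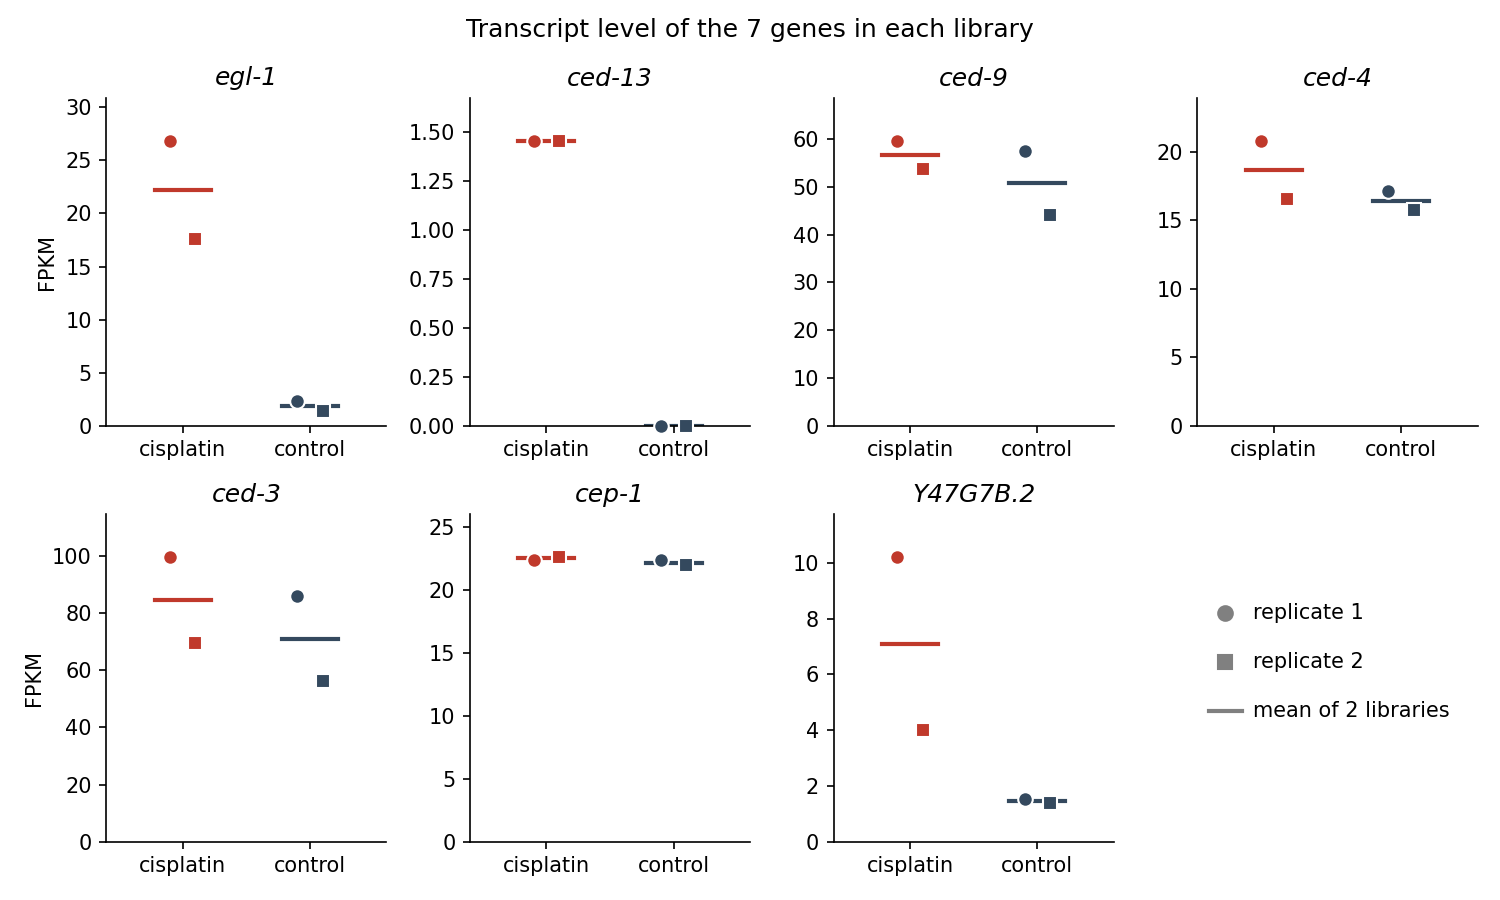
FPKM of each of the 7 genes (vertical axis, each from 0) in the cisplatin and control libraries, with circles for replicate 1, squares for replicate 2 and a bar for the mean of the 2 libraries. The cisplatin points of *egl-1*, *ced-13* and *Y47G7B.2* lie far above the control points, whereas those of *ced-9*, *ced-4* and *ced-3* overlap with them and those of *cep-1* lie at almost the same height.

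*egl-1* (F23B12.9), on chromosome V from 14431308 to 14432359 on the minus strand of WBcel235, is a short gene of 3 exons and 559 exonic bases. It had 26.9 and 17.6 FPKM in cisplatin replicates 1 and 2, against 2.35 and 1.36 FPKM in control replicates 1 and 2. Both treated libraries lay above both controls, and the lower treated value was still many times the higher control value. The means were 22.2 ± 6.57 FPKM with cisplatin and 1.86 ± 0.698 FPKM without (SD, n = 2 each), a ratio of 11.97. The authors' own value over both replicates was 21.7 FPKM with cisplatin and 2.16 FPKM without. The ratio was 11.4 between the libraries numbered 1 and 12.9 between those numbered 2. On the log2(FPKM + 0.5) scale, which understates changes of low genes, the difference was 3.27 (standard error 0.567, 95% interval 1.90 to 4.64). Ranked from the top, this was difference number 13 among all genes tested, and its unadjusted p of 0.000997 was number 23 (limma, adjusted p = 0.626). In the ranking of all genes by level, *egl-1* stood at the 62.7th percentile with cisplatin and at the 18.4th percentile in the controls.

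Beyond its response to the drug, *egl-1* was lower in replicate 2 than in replicate 1, by -0.60 on the log2 scale with cisplatin and by -0.61 without. The median gene went the other way, with 0.28 and 0.64. The authors' confidence bounds were 16.02 to 24.4 and 10.04 to 17.8 FPKM in the cisplatin libraries and 0.894 to 3.43 and 0.319 to 2.39 FPKM in the controls, so the intervals of treated and control libraries do not meet. The value of cisplatin replicate 1 lies above its own upper bound, and such values are not rare, since between 89.2% and 90.2% of the genes tested have their value inside the bounds. Read as the interval of a Poisson count, the widths of these bounds correspond to about 89 and 49 fragments with cisplatin and about 11 and 7 without. Leaving out cisplatin replicate 1 raised the unadjusted p to 0.0676, with a log2 difference of 2.97.

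The gene *ced-13* (R09F10.9) runs on chromosome X from 8299119 to 8299654 on the minus strand and also has 3 exons, with 412 exonic bases. Its level was 1.45 FPKM in each cisplatin library, and it is listed at 0 FPKM in both controls. No fold change is given, since both controls are at 0. Its unadjusted p was 0.0199 (limma, adjusted p = 1.00). On the log2 scale its replicates differed by only 0.0015 with cisplatin and by 0 without, while limma's standard error was 0.635. Nearly all of the spread behind this p is therefore borrowed from other genes. Bounds of 0.214 to 2.57 and of 0.215 to 2.58 FPKM correspond to about 5 fragments in each treated library, so the near equality of the 2 values is that of 2 small numbers of fragments and not a measure of precision. Among all genes tested, 14 were above 0 in both treated libraries and listed at 0 in both controls, or 0.0929%, and 7, or 0.0465%, had the reverse pattern. *ced-13* is 1 of those 14, all of which entered the test only through their treated libraries. *abf-1* and *cnc-11*, 2 antimicrobial peptide genes, were also among the 14, with 3.82 and 0.952 FPKM and 2.39 and 1.19 FPKM in the cisplatin libraries.

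*Y47G7B.2*, on chromosome II from 2705920 to 2708014 on the minus strand, has 4 exons and 1595 exonic bases. It had 10.2 and 4.01 FPKM with cisplatin, against 1.55 and 1.40 FPKM in the controls. The treated libraries lay above the controls but differed from each other by more than 2.5 times, with means of 7.11 ± 4.38 FPKM with cisplatin and 1.47 ± 0.105 FPKM without (SD, n = 2 each). The ratio was 6.60 between the libraries numbered 1 and 2.87 between those numbered 2. The log2 difference was 1.82 (standard error 0.738, 95% interval 0.03 to 3.604), with an unadjusted p of 0.0472 (limma, adjusted p = 1.00). The bounds correspond to about 108 and 47 fragments in the treated libraries and about 27 and 26 in the controls. The unadjusted p was above 0.05 with quantile normalization (0.0808) and with any 1 library left out, from 0.0926 without control replicate 1 to 0.463 without cisplatin replicate 1. Without cisplatin replicate 1 the log2 difference was 1.19.

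**Figure D2:**
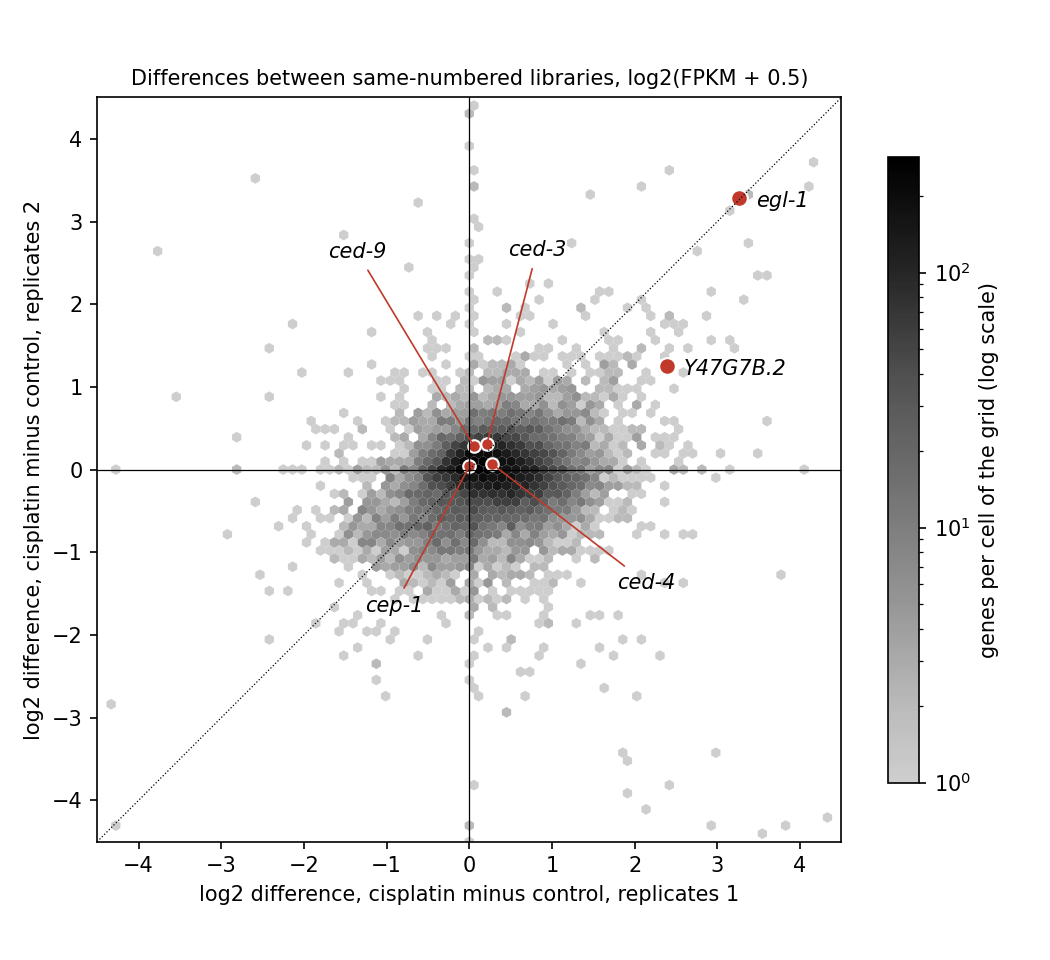
Difference of each gene between cisplatin and control on the log2(FPKM + 0.5) scale, for the libraries numbered 1 (horizontal axis) and 2 (vertical axis), with all genes as grey cells shaded by number, 6 of the 7 genes in red and a dotted line of equality. *egl-1* lies on the line at 3.26 and 3.28, *Y47G7B.2* below it at 2.39 and 1.25, and the other 4 within the bulk of the genes. *ced-13* is not drawn because its controls are at 0, and 31 genes lie beyond the axes.

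The protein that BH3-only proteins bind is encoded by *ced-9* (T07C4.8), on chromosome III from 10335172 to 10337522 on the plus strand, with 4 exons. Its values were 59.6 and 53.8 FPKM with cisplatin, against 57.4 and 44.0 FPKM without. The groups overlapped, with means of 56.7 ± 4.15 FPKM with cisplatin and 50.7 ± 9.48 FPKM in the controls (SD, n = 2 each). The log2 difference was 0.17 (95% interval -0.38 to 0.72), which corresponds to between 0.770 and 1.64 times the control level, and the unadjusted p was 0.479 (limma, adjusted p = 1.00). *ced-9* starts 3 bases after the end of *mev-1*, with which it is transcribed in an operon. *mev-1*, which encodes a subunit of mitochondrial complex II, had 276 and 208 FPKM with cisplatin, against 233 and 193 FPKM in the controls, a log2 difference of 0.18.

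*ced-4* (C35D10.9), the adaptor, lies on chromosome III from 4852325 to 4855171 on the plus strand. It had 20.8 and 16.5 FPKM with cisplatin, against 17.2 and 15.7 FPKM without. The groups overlapped, and the log2 difference of 0.17 had an interval of -0.61 to 0.95, or 0.656 to 1.93 times the control level. *ced-3* (C48D1.2), the caspase, lies on chromosome IV from 13198261 to 13204137 on the minus strand and had 99.6 and 69.6 FPKM with cisplatin, against 85.9 and 56.1 FPKM without. Here too the groups overlapped, and in each group replicate 2 was the lower one. Its log2 difference was 0.26 (95% interval -0.44 to 0.96, or 0.739 to 1.94 times). The unadjusted p-values of *ced-4* and *ced-3* were 0.613 and 0.399 (limma, adjusted p = 1.00 for both). With 2 libraries in each group, any change inside these intervals remains possible.

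*cep-1* (F52B5.5), which encodes the p53 relative, lies on chromosome I from 8324286 to 8328859 on the plus strand. It had 22.4 and 22.6 FPKM with cisplatin, against 22.4 and 21.95 FPKM without. The treated values lie just above the control values, by less than 4 in 100, and the means were 22.5 ± 0.146 FPKM with cisplatin and 22.2 ± 0.310 FPKM in the controls (SD, n = 2 each). The log2 difference was 0.02 (95% interval -0.63 to 0.68, or 0.645 to 1.599 times), with an unadjusted p of 0.937 (limma, adjusted p = 1.00). With *cep-1* counted, 4 of the 7 genes had treated values above both controls and 0 had them below, where 15.1% of all genes lay above and 4.21% below. The median gene differed by 0.13 on the log2 scale between the groups, so relative to it the difference was 0.04 for *ced-9* and for *ced-4*, 0.13 for *ced-3* and -0.11 for *cep-1*. With libraries scaled to 1 common median the signs of *ced-9*, *ced-4* and *cep-1* turned (-0.040, -0.035 and -0.19), and with quantile normalization that of *cep-1* did (-0.11). The sign of *ced-9* and of *ced-3* turned without control replicate 2 (-0.020 and -0.044).

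Levels can be set side by side within a library, since FPKM are per kilobase. With cisplatin the order of mean levels was *ced-3*, *ced-9*, *cep-1*, *egl-1*, *ced-4*, *Y47G7B.2* and *ced-13*. There the range of *egl-1*, 17.6 to 26.9 FPKM, held that of *cep-1*, so the order of these 2 genes is not settled by their spread. It also overlapped with the range of *ced-4*, which was the lower gene in each treated library. In the controls the order was *ced-3*, *ced-9*, *cep-1*, *ced-4*, *egl-1*, *Y47G7B.2* and *ced-13*, and the ranges over the 2 libraries of *ced-3* and *ced-9* and of *egl-1* and *Y47G7B.2* overlapped. The transcript level of *egl-1* relative to *ced-9*, whose protein EGL-1 binds, was 45.04% and 32.7% in cisplatin replicates 1 and 2, against 4.09% and 3.10% in the controls. The *egl-1* value of cisplatin replicate 1 lies above its own upper bound. The groups did not overlap in the ratio of *egl-1* to *ced-9*, which was 11.0 times as high between the libraries numbered 1 and 10.6 times as high between those numbered 2. By contrast the level of *ced-4* relative to *ced-9* was 34.9% and 30.8% with cisplatin and 29.9% and 35.8% without. The 2 ratios are descriptions with no test.

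**Figure D3:**
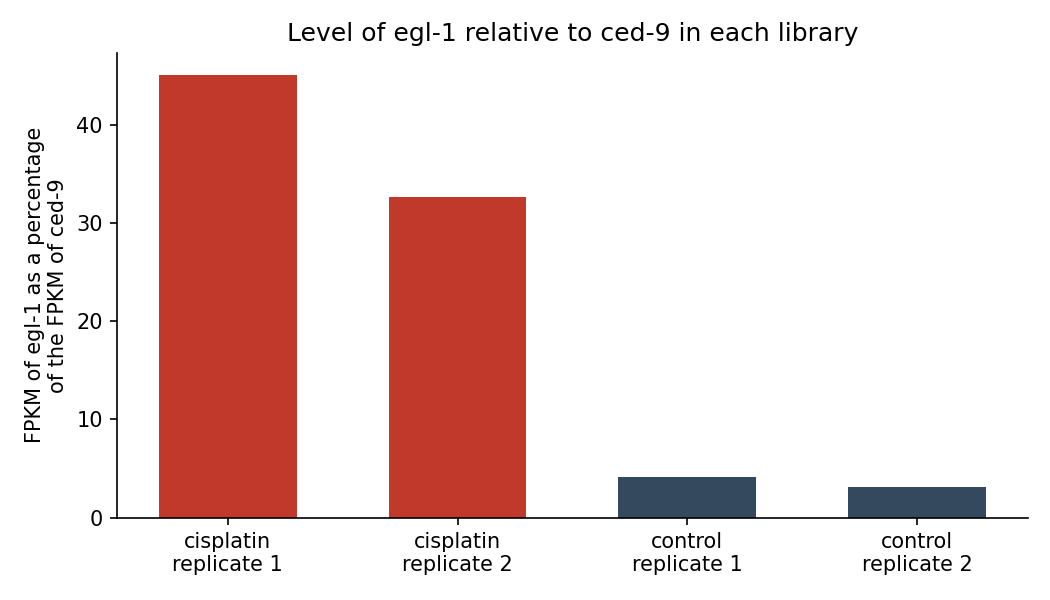
FPKM of *egl-1* as a percentage of the FPKM of *ced-9* (vertical axis, from 0) in each of the 4 libraries, with cisplatin in red and control in blue-grey. The bars stand at 45.04% and 32.7% with cisplatin and at 4.09% and 3.10% without, with no error since each bar is a single library.

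The genes with the pattern most like *egl-1*, by Euclidean distance over the 4 libraries between log2 values centred on each gene's mean, were *T23D8.13*, *C44C11.6*, *W02A2.9*, *gst-30* and *F01D5.2*, at distances of 0.594 to 0.693. The first 3 are listed at 0 in both controls, so their distances depend on the 0.5 added to every value. No such genes are given for *ced-13*, whose own controls are at 0. *gst-30*, a glutathione S-transferase gene, had 10.5 and 7.99 FPKM with cisplatin, against 1.09 and 0.830 FPKM without. For *Y47G7B.2* the nearest were *Y7A5A.10*, *C30F2.4*, *linc-72*, *F14D2.5* and *nit-1*, at distances of 0.223 to 0.392. Among these, *Y7A5A.10* and *linc-72* are listed at 0 in both controls, so their distances also depend on the 0.5 added. *nit-1*, a nitrilase-like gene, had 41.8 and 24.7 FPKM with cisplatin, against 10.04 and 9.68 FPKM without. With 4 libraries in 2 groups, many genes that differ between the groups lie close to each other by this measure.

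Other genes of cell death were compared from a list of 39 gene names, of which 34 were tested, covering further caspases, nucleases that degrade the DNA of dying cells, mitochondrial fission genes and transcription factors that set cell death. None passed an adjusted p of 0.05, while 1 was higher and 0 were lower by an unadjusted p not above 0.05 in limma (1.12% and 0.445% of all genes), and the median log2 difference was 0.11, against 0.13 for all genes. The 1 gene was *fis-2*, of the FIS1 family of mitochondrial fission, with 57.3 and 55.6 FPKM with cisplatin, against 35.5 and 37.2 FPKM without. Its log2 difference was 0.63 (standard error 0.205, unadjusted p = 0.0207, adjusted p = 1.00 in limma). *pqn-41*, which is needed for the death of the linker cell, a non-apoptotic death, had 13.3 and 15.99 FPKM with cisplatin, against 5.57 and 11.5 FPKM without. *crn-4*, a cell death nuclease gene, had 17.9 and 10.9 against 13.7 and 6.98 FPKM in the controls. At the other end, *csp-2*, a caspase-like gene, was near the detection limit with 0.242 and 0.972 against 0.195 and 1.39 FPKM, *ces-2*, a transcription factor gene of cell death specification, had 1.82 and 3.86 against 1.80 and 4.71 FPKM, and *icd-1*, a subunit of the nascent polypeptide-associated complex, had 2012 and 1628 against 2432 and 1597 FPKM. In 6 genes of the list the treated values lay above both controls, in 1 below and in 27 the groups overlapped, where 15.1% of all genes lay above and 4.21% below.

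A list of 37 regulators of *cep-1* and of damage-induced death, 35 of them tested, held checkpoint genes, translational regulators and kinases. In limma 0 were higher and 0 lower by an unadjusted p not above 0.05 (1.12% and 0.445% of all genes), and 0 passed after adjustment. The median log2 difference was 0.10, against 0.13 for all genes. At the upper end stood *phg-1* and *chk-1*. *chk-1*, the checkpoint kinase gene, had 58.2 and 44.7 FPKM with cisplatin, against 42.9 and 30.8 FPKM without, and its groups did not overlap (log2 difference 0.48, unadjusted p = 0.120 in limma). *phg-1* had 2.80 and 9.82 against 1.31 and 9.03 FPKM, where the replicates differed more than the groups. At the lower end, *mrt-2*, a gene of the 9-1-1 checkpoint clamp, had 15.7 and 15.9 FPKM with cisplatin, against 20.0 and 16.8 FPKM without, *prmt-5*, a methyltransferase gene that acts on the CEP-1 pathway, had 32.4 and 37.7 against 35.8 and 43.7 FPKM, and *pch-2*, a meiotic checkpoint gene, had 30.5 and 30.5 against 37.2 and 31.7 FPKM. *gld-1*, whose product represses the translation of *cep-1* mRNA in the germline, was at 530 and 435 against 684 and 414 FPKM. It is named outside the rule for its role. In 8 genes of the list the treated values lay above both controls, in 2 below and in 25 the groups overlapped, beside 15.1% above and 4.21% below over all genes.

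Genes by which neighbours engulf dying cells were tested for 15 of 16 names. By an unadjusted p not above 0.05 in limma, 0 were higher and 0 lower (1.12% and 0.445% of all genes), and 0 passed after adjustment. The median log2 difference was 0.21, against 0.13 for all genes. The upper 3 were *ced-7*, an ABC transporter gene, with 22.3 and 40.5 against 11.02 and 36.9 FPKM, *dyn-1*, the dynamin gene, with 39.1 and 39.5 against 20.8 and 33.8 FPKM, and *pat-2*, an integrin gene, with 9.69 and 19.4 against 4.91 and 20.5 FPKM. The lower 3 were *psr-1*, *abi-1* and *ced-5*, with log2 differences of 0.04, 0.07 and 0.11. The receptor gene *ced-1*, named outside the rule for its role, had 34.3 and 37.1 FPKM with cisplatin, against 20.9 and 35.5 FPKM without. In 3 genes of this list the treated values lay above both controls and in 0 below (15.1% and 4.21% over all genes).

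**Figure D4:**
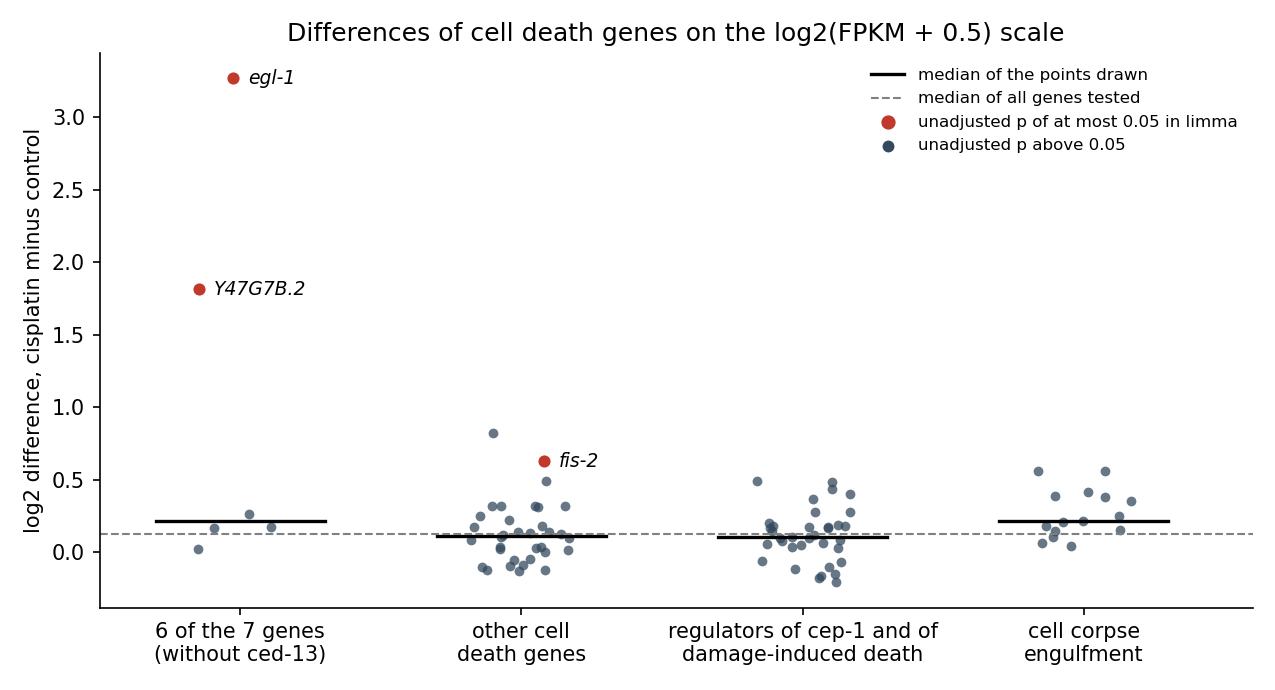
Difference between cisplatin and control on the log2(FPKM + 0.5) scale for each gene (points) of the apoptosis genes and of the 3 lists, with the median of the points drawn for each (black bars) and of all genes tested (dashed line at 0.13), and with genes at an unadjusted p of at most 0.05 in limma in red. *egl-1* at 3.27 and *Y47G7B.2* at 1.82 stand apart, *fis-2* at 0.63 is the other red point, and *ced-13* is not drawn because its controls are at 0.

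Since developmental cell deaths occur mostly in embryos and physiological ones in the germline, the markers of these tissues were read beside the values of *egl-1*. Their counts without overlap stand against 15.1% higher and 4.21% lower over all genes. Genes of early embryos, 15 tested of 24 names, summed to 186 and 163 FPKM with cisplatin, against 164 and 174 FPKM without, and in 0 of them did the groups separate. The largest part of that sum is *pal-1*, with 93.3 and 76.8 FPKM with cisplatin, against 101 and 69.8 FPKM without. Genes of the early germline, 16 of 16, summed to 988 and 1023 against 881 and 926 FPKM, with 6 higher and 2 lower without overlap. Oocyte genes, 12 of 17, summed to 5111 and 3945 against 5208 and 3346 FPKM, with 1 higher and 0 lower. Sperm genes, 39 of 39, were lower with cisplatin in 33 without overlap and summed to 2647 and 3119 against 6636 and 5479 FPKM. Most of them are major sperm protein (*msp*) genes of a single family, which carry most of that sum. In 6 sperm genes, no *msp* gene among them, the groups overlapped. Moulting genes, 15 of 15, which mark larvae, differed mainly between the replicates, with 197 and 547 against 176 and 622 FPKM. Intestine genes, 11 of 13, summed to 15935 and 15698 FPKM with cisplatin, against 19709 and 17923 FPKM in the controls. That sum is carried by 3 vitellogenin genes, which code for yolk proteins (12812 and 13027 against 17036 and 15690 FPKM), while the other 8 genes summed to 3123 and 2671 against 2673 and 2233 FPKM, a split made after the values were seen. Muscle genes, 12 of 12, reached 8712 and 7215 FPKM in treated animals, against 7842 and 7748 FPKM in untreated ones. For neuron genes, 13 of 15, the sums were 441 and 451 FPKM with the drug, against 346 and 459 FPKM without it. The sums hold tested genes only. Of the 24 embryo names, 15 were in the deposited table, and of the 17 oocyte names, 15 were in it and 12 were tested. A gene with a failed estimate or a mean under 0.5 FPKM, such as a gene at 0 in every library, could not enter the test. The part of these shifts in the levels of the apoptosis genes was not tested.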

How the data were processed

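RNA was sequenced from 2 cisplatin and 2 control populations. The authors aligned reads with TopHat to WBcel235, filtered reads with several mapping sites and ran Cufflinks and Cuffdiff through SeqSolve. The submitters' notes name TopHat, Cufflinks and Cuffdiff without versions. The deposited FPKM, 1 value per gene and library with confidence bounds, are normalized by the authors and are not counts. The deposited fold changes, p-values and splicing columns, the authors' own comparisons, were not used. The dose of 60 µg/ml is that of the treatment label and of the paper; another protocol text in the labels has 0 µg/ml. Whether strand was used is not given in the sources used here.

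Columns were matched to samples by name. Genes with an estimate marked as failed (88) or a mean under 0.5 FPKM were left out. For the remaining 15065, log2(FPKM + 0.5) was tested with limma 3.58.1 (R 4.3.3, intensity trend) and Benjamini-Hochberg adjustment. The same fit was also run on simulated data, in which every gene had the same spread, unlike the genes here. Errors are limma's standard errors or SD. A two-sided exact permutation test of 2 against 2 cannot go below 0.33 and was not made. Named were the 7 genes, the 3 genes at either end of each pathway list, any list gene with an unadjusted p not above 0.05, and the 5 genes most like *egl-1*, *ced-13* and *Y47G7B.2*. *abf-1*, *cnc-11*, *mev-1*, *gld-1*, *ced-1* and *pal-1* were named after their values were seen. A gene that this rule also names is not reported here. Likeness is not given for *ced-13*, since its controls are at 0. Members and lists were chosen with earlier results of these data known. Coordinates come from the Ensembl annotation of WBcel235, and no exon of another annotated gene overlaps the exons of the 7. Alternatives were other pseudocounts, filters and normalizations, no trend, failed estimates at 0, a replicate block and each library left out.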

Additional observations from a re-analysis of the deposited data

How the results depend on the processing

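Read counts per gene are not given and fragments were only estimated from the confidence bounds, so the precision of low genes such as *ced-13* is known roughly, and with 2 libraries in each group only large differences can pass. Over all genes, 0 higher and 0 lower passed an adjusted p of 0.05 in limma, against 1 higher (and 0 lower) with a pseudocount of 1. At an unadjusted p of at most 0.05 the counts were 168 higher and 67 lower, with 276 lower under quantile normalization and 169 lower with libraries scaled to the same median. Leaving out 1 library, 0 to 18 genes were higher and 0 to 7 lower at the adjusted p, and 112 to 750 higher and 52 to 110 lower at the unadjusted p, and the cause was not tested. The counts of 12 and 7 came without cisplatin replicate 1, those of 18 and 3 without cisplatin replicate 2 and that of 750 without control replicate 2.

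The replicate number as a block gave 231 genes higher and 138 lower at the adjusted p, and 1043 and 441 at the unadjusted p, on 1 residual degree of freedom. Most of the spread behind each of these p-values is therefore borrowed from other genes. With this block *egl-1* (log2 difference 3.27, adjusted p = 1.26e-07), *ced-13* (adjusted p = 0.00387) and *Y47G7B.2* (1.82, adjusted p = 0.0241) passed in limma, and the other 4 genes did not. *ced-13* entered the test only through its treated libraries, and the size of its difference depends on the 0.5 FPKM added to every value. The labels give no shared day or culture for a number. The study speaks of its replicates as separate experiments, and it built its gene lists by setting differential expression results of 2 independent replicates beside each other. It does not say that each replicate had its own control. Across genes the difference of replicate 2 from replicate 1 correlated between the groups (Pearson's r = 0.594 over 15065 genes, which are not independent), and 2 pairs are too few to settle it.

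The sign turned with libraries scaled to the same median for *ced-9* (-0.040), *ced-4* (-0.035) and *cep-1* (-0.19), and for *cep-1* with quantile normalization (-0.11). With 1 library left out the log2 difference ranged from 2.96 to 3.58 for *egl-1*, from 1.19 to 2.44 for *Y47G7B.2*, from -0.020 to 0.36 for *ced-9*, from -0.044 to 0.57 for *ced-3*, from 0.01 to 0.33 for *ced-4* and from 0.01 to 0.04 for *cep-1*. In those fits the lone library is assumed to vary like the other group. *ced-13* has no value with a filter at a mean of 1 FPKM. In no fit without the block did any of the 7 genes pass, and the adjusted p of *egl-1* ranged from 0.437, with libraries scaled to the same median, to 1.00.

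With bounds read as 2 standard deviations, the fragments behind *ced-9* in control replicate 1 came to 621 and those behind *ced-3* to 967 and 741 with cisplatin and 971 and 695 without. With 0.5 FPKM added to both genes, the ratio of *egl-1* to *ced-9* in the controls was 0.0492 and 0.0418.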
